A study of Mus musculus with 6 samples.

Results

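The heat shock and chaperone genes described here are 37 listed mouse genes, 37 of the 33457 features in the tables, taken by name and not by their values. They comprise 8 cytosolic HSP70 and HSP110 genes (Hspa1a, Hspa1b, Hspa8, Hspa4, Hspa4l, Hspa2, Hspa12a, Hsph1), 2 HSP90 genes (Hsp90aa1, Hsp90ab1) and 9 J-domain co-chaperones (Dnaja1, Dnaja2, Dnajb1, Dnajb2, Dnajb4, Dnajb6, Dnajc3, Dnajc5, Dnajc6). The others are 3 mitochondrial chaperones (Hspa9, Hspd1, Hspe1), 3 small heat shock or BAG genes (Hspb8, Bag1, Bag3), 4 HSP90 co-chaperones (Stip1, Ahsa1, Fkbp4, Chordc1), 6 subunits of the cytosolic CCT chaperonin (Tcp1, Cct2, Cct3, Cct4, Cct5, Cct8) and the 2 heat shock factors Hsf1 and Hsf2. All 37 were found in all 6 libraries' tables and in the gene annotation.

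The data were single-nucleus RNA sequencing of brain from mice aged 9 months on the B6 background, with 6 libraries and 1 library in each group. FE3 and FE4 mice carried human APOE3 or APOE4 flanked by loxP sites (fl/fl) and no tau transgene, and were untreated. TAFE3 and TAFE4 mice carried the same APOE3 fl/fl or APOE4 fl/fl alleles with the P301S human tau transgene and Aldh1la1CreERT, the spelling the labels give to an astrocyte-driven, tamoxifen-inducible Cre, and received oil (TAFE3_oil, TAFE4_oil) or tamoxifen, which removes the floxed APOE (TAFE3_tam, TAFE4_tam). A TAFE oil library therefore differs from its FE library by tau, Cre and oil together, and tamoxifen cannot be told apart from the deletion it induces. The sources used here do not give the number of mice per library, so the variation between animals is not measured. The library titles name hippocampus and the protocol a left hemisphere. Transcripts that label subicular or cortical excitatory neurons were present beside those of the hippocampal fields.

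Chaperones bind unfolded or newly made proteins. HSP70 works in cycles set by J-domain partners and nucleotide exchange factors such as the HSP110 and BAG proteins, HSP90 takes clients from HSP70 through Stip1, and the CCT ring folds actin and tubulin. Under proteotoxic stress, heat shock factor 1 binds repeated nGAAn units in promoters and raises the inducible genes, among them Hspa1a, Hspa1b, Dnajb1, Hsph1 and Bag3, whereas Hspa8 and Hsp90ab1 are made in unstressed cells. HSP70, HSP90 and their partners also bind tau and take part in its folding and degradation.

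After filters on depth, mitochondrial UMIs and likely doublets, 9796 to 14235 nuclei per library were used, with a median of 2154 to 2575 UMIs (unique molecules counted). The 9 classes described below were clusters named from marker genes, with the 37 genes kept out of the clustering. The libraries differed in mitochondrial UMIs, which in nuclear preparations come from outside the nucleus. Median shares per barcode were 3.23% for FE3 but 0.625% for FE4, lay between 2.01% and 2.81% for TAFE3_oil, TAFE4_oil (2.35%) and TAFE3_tam, and stood at 0.695% for TAFE4_tam. Human APOE in astrocytes stood at 12406.5 and 12528 CPM (counts of the gene per 1000000 UMIs of the class) in FE3 and FE4, at 16268 and 19222 in TAFE3_oil and TAFE4_oil, and at 5303 and 5223 after tamoxifen, so it was lower in both tamoxifen libraries. Any pair of libraries shared 22 to 53 cell barcodes, at most 0.418% of the smaller library.

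The 37 genes together took the smallest share of UMIs in FE4 and the largest in TAFE4_oil in all 9 classes, although the counting intervals of the log2 ratio held 0 for FE4 against FE3 in microglia (-0.20 to 0.06) and for TAFE4_oil against TAFE3_oil in astrocytes (-0.01 to 0.13). In dentate granule neurons they summed to 2421 and 1827 CPM in FE3 and FE4, 2743 and 2553 CPM in TAFE3_oil and TAFE3_tam, and 3085 and 2588 CPM in TAFE4_oil and TAFE4_tam; CPM is taken over the UMIs of that class and library. In astrocytes the sums were 2659, 2304, 4250, 3783, 4423 and 3195 CPM in the same order, and the FE libraries both lay below the TAFE libraries. In oligodendrocytes they were 3725, 2917, 4434, 3693, 4862 and 3675 CPM, with FE3 close to TAFE3_tam and TAFE4_tam. In granule neurons the mitochondrial share and the sums were ordered differently over the 6 libraries, but went together in some pairs. FE3 and FE4 held 2.49% and 0.724% mitochondrial UMIs with 2421 and 1827 CPM of chaperone transcripts. TAFE4_oil and TAFE4_tam held 2.17% and 0.835% with 3085 and 2588 CPM. FE3 had a higher share than TAFE4_oil but a lower sum. Levels at matched shares are given below.

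**Figure D1:**
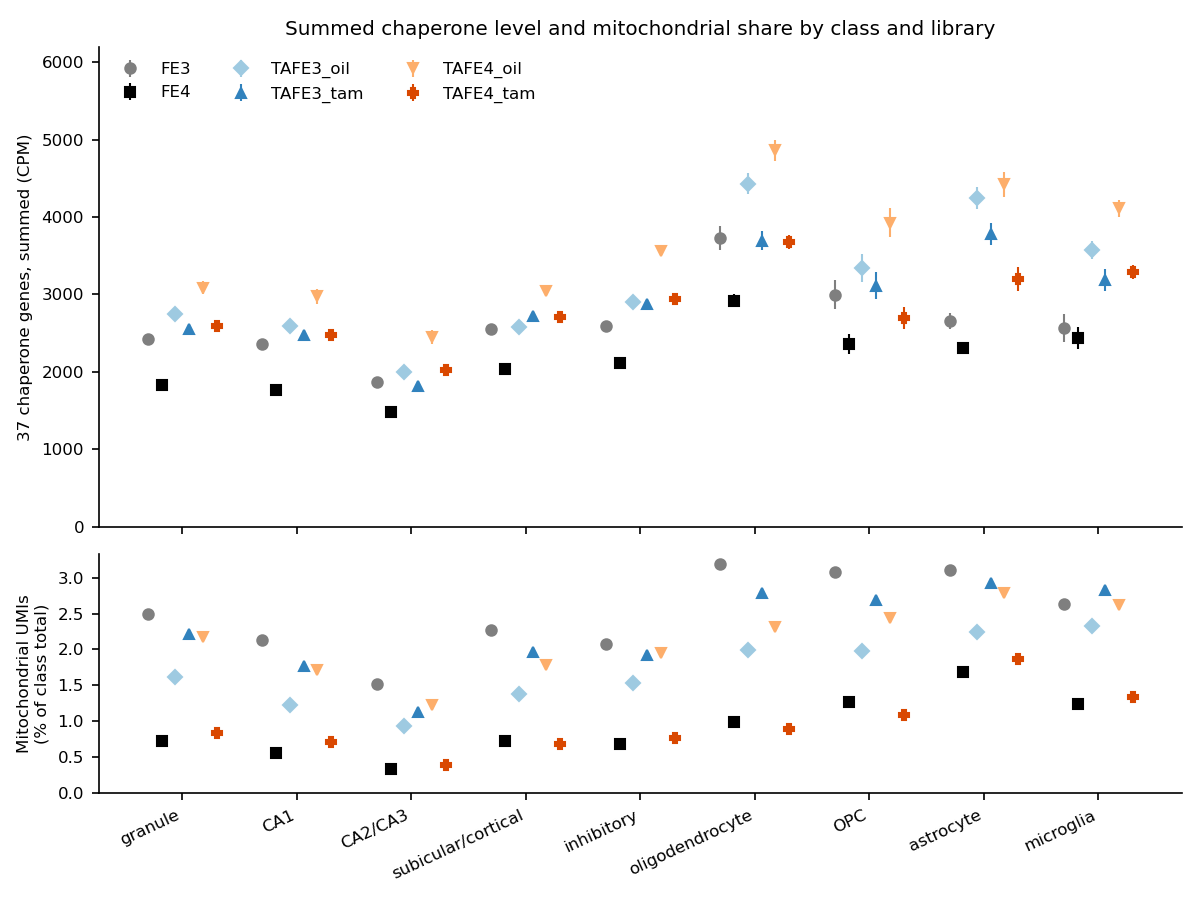
Summed level of the 37 genes (CPM) and mitochondrial share of UMIs (%) for each of the 9 classes, with 1 point per library. FE4 is the lowest and TAFE4_oil the highest library of the chaperone sums in each class, and the granule neuron sums run from 1827 to 3085 CPM.

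Within a library, the genes were shared unequally between classes. The levels below compare classes for 1 gene at a time, since UMI counts are not scaled for gene length. Endothelial, other vascular and unnamed clusters were not ranked, so a class called highest below is highest among the ranked classes only. The endothelial sums of the 37 genes ran from 3837 CPM in FE4 to 5817 CPM in TAFE3_oil. In every library they were above the astrocyte and oligodendrocyte sums, although FE3 held only 39 endothelial nuclei. By the median of the 6 libraries, 13 of the 37 were highest in astrocytes, 7 in oligodendrocytes, 5 in microglia, 3 each in CA1 neurons, inhibitory neurons and oligodendrocyte precursors, 2 in subicular or cortical neurons and 1 in granule neurons, and 0 in CA2/CA3 neurons. Other gene lists were also low in CA2/CA3 neurons. In FE4, ribosomal protein genes stood at 2813 CPM there, 6421 CPM in astrocytes and 6596 CPM in oligodendrocytes. Oxidative phosphorylation genes stood at 3012, 6854 and 6568 CPM, and mitochondrial shares at 0.338%, 1.69% and 0.993%, in the same order. The part of these differences in the class order of the chaperone genes was not tested. For 8 genes the same class was the highest in all 6 libraries. For 3 of these the lowest library of the top class was above the highest library of the next class.

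Dnajb2 (chr1:75236406-75245692, plus strand, GRCm38), which encodes a J-domain protein that directs HSP70 clients to the proteasome, was one of those 3. In oligodendrocytes it stood at 385 and 365 CPM in FE3 and FE4, 365 and 327 CPM in TAFE3_oil and TAFE3_tam, and 413 and 416 CPM in TAFE4_oil and TAFE4_tam, and in astrocytes, the next class, at 60.1 to 82.8 CPM. Its oligodendrocyte level moved little between libraries. Hspa2 (chr12:76404176-76406938, plus strand), an HSP70 gene best known from the testis, was highest in astrocytes at 48.0, 76.0, 72.2, 124, 67.7 and 76.9 CPM in the same library order, against 16.9 to 29.8 CPM in granule neurons. Dnajb6, whose product blocks the aggregation of polyglutamine proteins, was highest in microglia at 163, 162, 176, 180, 215 and 206 CPM, against 136 to 161 CPM in oligodendrocytes.

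Among the abundant cytosolic chaperones, Hsp90aa1 (chr12:110690605-110702728, minus strand), the inducible HSP90, was highest in oligodendrocytes in all 6 libraries, with a median of 485 CPM and a range of 351 to 689 CPM. Hsp90ab1 (chr17:45567775-45573271, minus strand), the constitutive HSP90, had its highest median there too, at 632 CPM. Hspa8 (chr9:40800984-40810087, plus strand), the constitutive HSP70, had medians of 608 CPM in astrocytes and 601 CPM in oligodendrocytes, whose library ranges overlapped. Its annotated span also holds 3 small nucleolar RNA genes on the same strand, and 14 of the 37 genes are overlapped by another gene, so some UMIs may not be theirs.

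The mitochondrial chaperones Hspd1 and Hspe1, which form the folding chamber of the matrix and its lid, and Hspa9, the matrix HSP70, all had their highest medians in astrocytes, at 101, 121 and 90.5 CPM. Hspd1 and Hspe1 overlap each other on the genome, and the sources used here do not give the strand rule of the authors' counting. Hspb8 and Bag3, which act together in chaperone-assisted autophagy, were also highest in astrocytes, with medians of 14.7 and 14.6 CPM against 3.86 and 5.28 CPM in the next class, although the Hspb8 range of 6.55 to 32.4 CPM was wide. Dnajc3, an endoplasmic reticulum co-chaperone and kinase inhibitor, was highest in astrocytes in every library (97.2 to 144 CPM). Fkbp4, an HSP90 partner of steroid receptors, was highest in inhibitory neurons in every library (70.3 to 118 CPM).

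**Figure D2:**
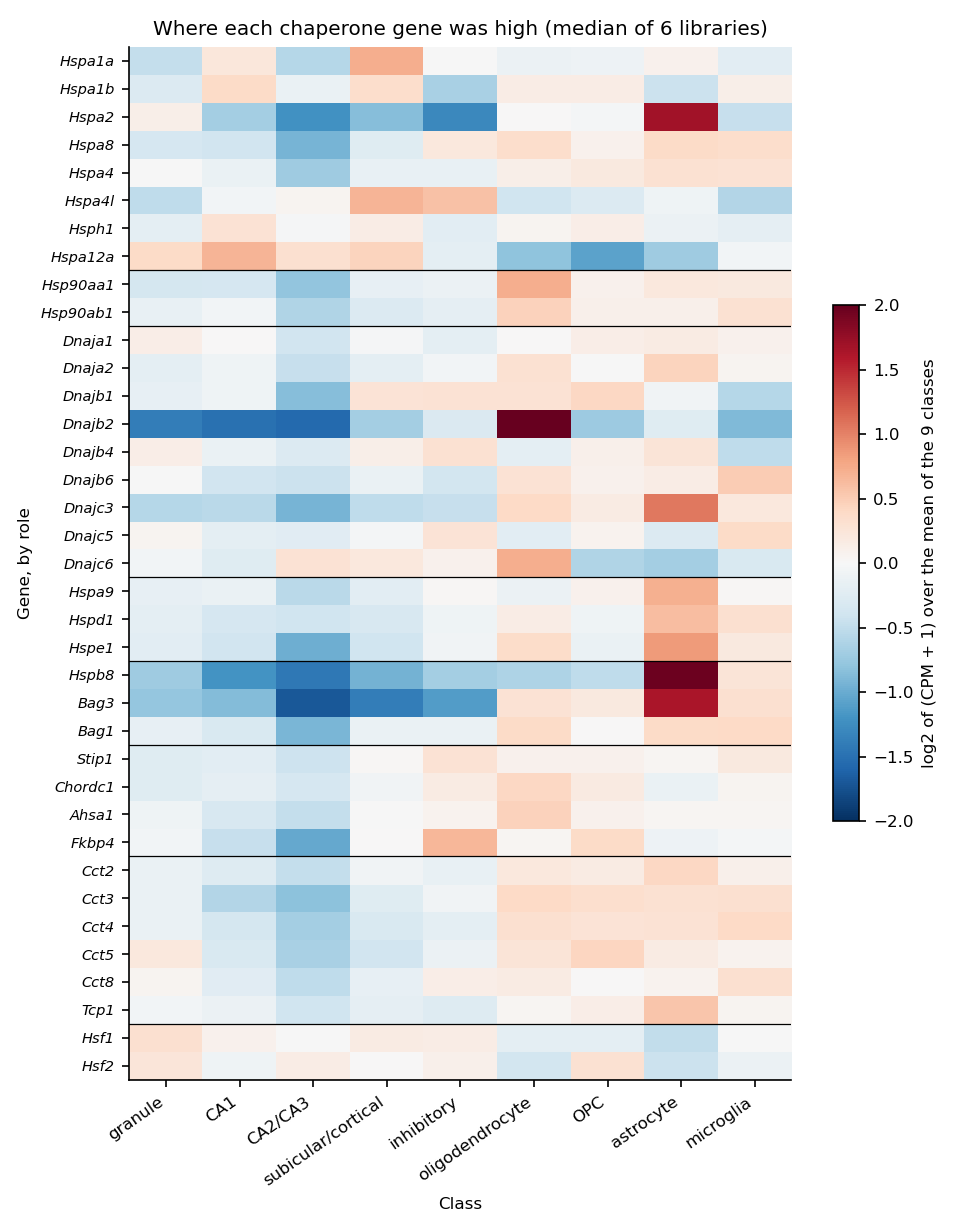
Level of each of the 37 genes in each of the 9 classes, as the median over the 6 libraries of log2 (CPM + 1) minus the mean of the 9 classes, with the colour scale ending at 2 in either direction. Dnajb2 stands out in oligodendrocytes, Hspa2, Hspb8 and Bag3 in astrocytes and Dnajb6 in microglia, and most genes are lowest in CA2/CA3 neurons.

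Between TAFE4_oil and FE4, the pair that asks what tau, Cre and oil together go with on APOE4, chaperone genes were more often higher in TAFE4_oil than all features were, in every class. With 1 library per group there is no replicate check. A gene was counted as higher or lower where the CPM ratio was at least 1.5-fold (0.585 on the log2 scale), among features with at least 20 UMIs in both libraries together and 3 CPM in either, and intervals cover counting error only. The higher genes numbered 24 of 34 tested in granule neurons, where 21.1% of all tested features were higher. They numbered 20 of 34 in CA1 (23.2% of all features), 17 of 34 in CA2/CA3 (22.5%), 15 of 34 in subicular or cortical neurons (18.7%) and 20 of 35 in inhibitory neurons (24.4%). In glia they numbered 24 of 34 in oligodendrocytes (23.2%), 15 of 30 in precursors (23.2%), 23 of 35 in astrocytes (26.2%) and 18 of 33 in microglia (24%). A single gene was lower in astrocytes (Hsf2) and a single gene in microglia (Hspa2), and 0 were lower in the other classes. Of all features, 2.72% in inhibitory neurons to 11.9% in microglia were lower. The mix of clusters within subicular or cortical neurons differed between libraries, as given below. Its part in the values of that class, in this and the other pairs, was not tested. The median log2 ratio of the tested chaperone genes ran from 0.53 to 0.75 over the classes, beside 0.12 to 0.26 for all features.

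Hspa8 and Hsp90aa1 were higher in 9 of 9 classes in this pair. Granule neurons held 337 and 220 CPM of Hspa8 in FE3 and FE4, 436 and 387 CPM in TAFE3_oil and TAFE3_tam, and 538 and 353 CPM in TAFE4_oil and TAFE4_tam. FE4 was the lowest and TAFE4_oil the highest library, and the log2 ratio of TAFE4_oil to FE4 was 1.29 (95% counting interval 1.17 to 1.41). For Hsp90aa1 the granule levels were 212, 128, 265, 224, 307 and 234 CPM in the same order, again with FE4 lowest and TAFE4_oil highest, and the log2 ratio was 1.26 (1.11 to 1.42). Over the 9 classes the ratios ran from 0.97 to 1.36 for Hspa8 and from 0.97 to 1.60 for Hsp90aa1. The largest Hsp90aa1 ratio was in astrocytes, at 216, 150, 465, 369, 454 and 303 CPM.

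By role, both HSP90 genes were higher in granule neurons, oligodendrocytes, astrocytes and microglia. Over the 9 classes the median log2 ratio of the HSP90 pair ran from 0.80 to 1.38, that of the tested HSP70 and HSP110 genes from 0.56 to 1.08, that of the mitochondrial chaperones from 0.56 to 1.09 and that of the CCT subunits from 0.56 to 0.92. The J-domain genes had medians of 0.19 to 0.73 and the HSP90 co-chaperones of 0.07 to 0.68. The heat shock factors had medians of -0.32 to 0.31. Scaling by TMM (trimmed mean of M values) in place of class totals moved all ratios of this pair by 0.04 to 0.25, and the HSP90 co-chaperone median then fell below 0 in CA1, subicular or cortical and inhibitory neurons, to -0.05 at the lowest.

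Hspa4, an HSP110-type exchange factor, Bag1, a nucleotide exchange factor of HSP70, and Cct3 were also higher in 9 of 9 classes. Bag1 stood in granule neurons at 28.9 and 11.9 CPM in FE3 and FE4, 23.1 and 24.7 CPM in TAFE3_oil and TAFE3_tam, and 27.1 and 20.2 CPM in TAFE4_oil and TAFE4_tam. FE4 alone was low, and FE3 was the highest. Cct3 in oligodendrocytes stood at 37.4, 30.6, 85.8, 78.5, 96.3 and 70.9 CPM, with all 4 TAFE libraries above both FE libraries and a log2 ratio of 1.65 (1.15 to 2.17) between TAFE4_oil and FE4. Hsp90ab1, Hspd1, Hspe1, Hspa9 and Dnaja2 were higher in 8 of 9 classes, and Hsph1, Tcp1 and Ahsa1 in 7.

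Some members passed 1.5-fold in few classes or in 0. Hsf1 was higher in 0 of 9 classes, with log2 ratios of -0.34 to 0.03, and in granule neurons stood at 65.6, 58.4, 48.4, 53.1, 59.5 and 60.4 CPM in the library order above, FE3 being the highest. Dnajc3 was higher in 0 of 9 classes (-0.14 to 0.55). Dnajb4 and Dnajb6 were higher in 1 class each, and Dnajb2, Stip1 and Fkbp4 in 2. In granule neurons, among genes with at least 100 UMIs over both libraries, the lowest ratios were those of Hspa12a at -0.16, Dnajb4 at -0.05, Stip1 at 0.02, Hsf1 at 0.03 and Fkbp4 at 0.11.

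Astrocytes had a chaperone median of 0.75 and granule neurons of 0.72 in this pair. After Hsp90aa1, at a log2 ratio of 1.60 (1.37 to 1.84), the highest astrocyte ratios among genes with at least 100 UMIs over both libraries were those of Cct5 at 1.45, Hspa8 at 1.36, Cct3 at 1.27 and Hsp90ab1 at 1.15. Astrocyte Hspa8 stood at 429 and 322 CPM in FE3 and FE4, 869 and 712 CPM in TAFE3_oil and TAFE3_tam, and 824 and 505 CPM in TAFE4_oil and TAFE4_tam. Both FE libraries lay below all 4 TAFE libraries. By the same limit the lowest were those of Dnajb2 at -0.24, Hspa2 at -0.17 and Dnajb4 at -0.08. In microglia the highest by that limit were Hspa4l at 1.36, Hsp90aa1 at 1.14 and Hspa8 at 1.06, and microglial Hspa8 stood at 426, 413, 693, 596, 864 and 604 CPM.

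Other gene groups moved with the chaperones in this pair. Over the 9 classes the 13 mitochondrially encoded genes had median log2 ratios of 0.63 to 1.82, 52 ribosomal protein genes of 0.77 to 1.10, 87 nuclear-encoded oxidative phosphorylation genes of 0.76 to 0.98 and 22 immediate early genes of 0.33 to 0.98. A list of 8 long nuclear RNAs had medians of -0.48 to 0.11, and 13 abundant neuronal transcripts had -0.54 in astrocytes. The ribosomal and oxidative phosphorylation medians were above the chaperone median in all 9 classes, and their part in the chaperone difference was not tested. These levels were summed over the nuclei of a class. Whether most nuclei held a larger chaperone share or a few held a much larger one was not tested in this pair.

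**Figure D3:**
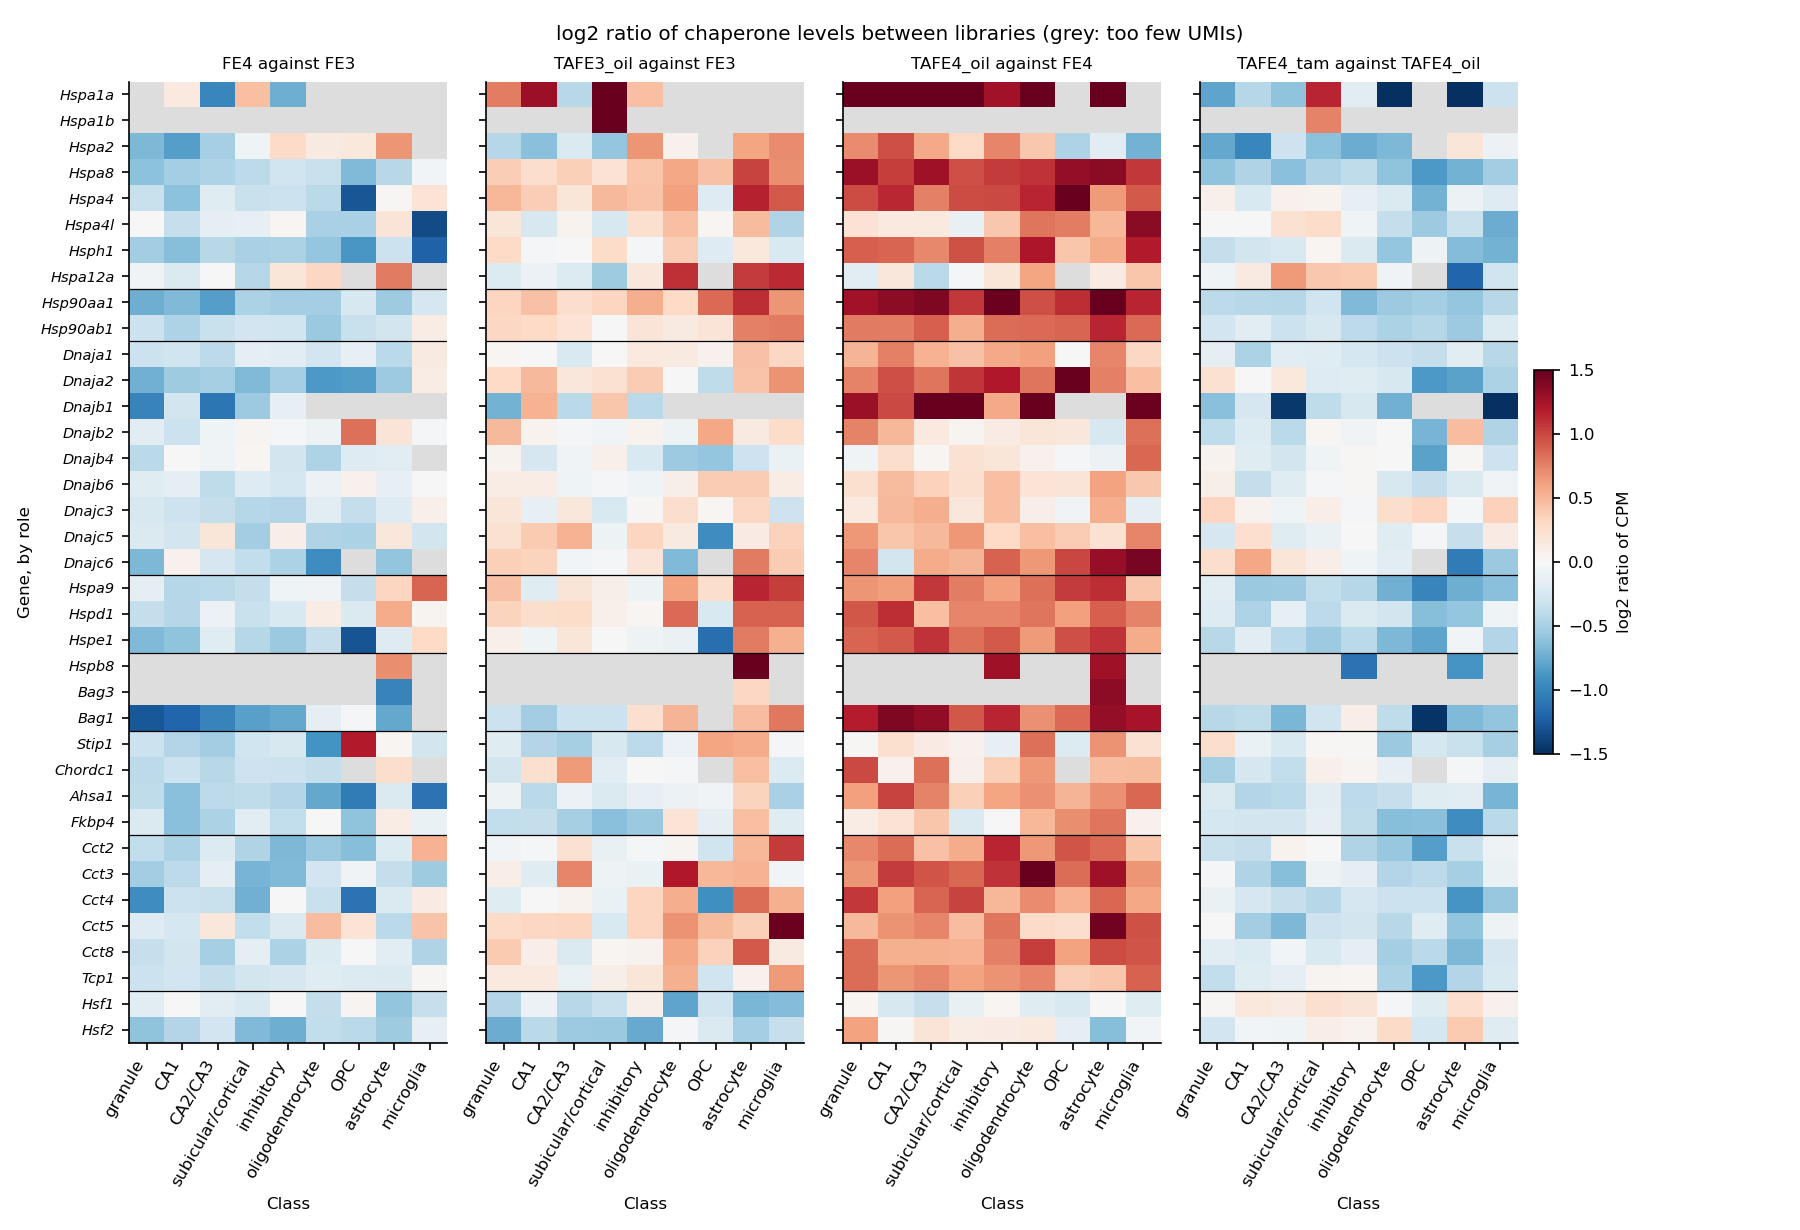
Log2 ratio of CPM for each of the 37 genes in each of the 9 classes, for FE4 against FE3, TAFE3_oil against FE3, TAFE4_oil against FE4 and TAFE4_tam against TAFE4_oil, with grey where too few UMIs were counted and values past 1.5 in either direction drawn in the end colour. Hspa8 and Hsp90aa1 are at 0.97 or more in all 9 classes of the panel of TAFE4_oil against FE4, and Hsf1 runs from -0.34 to 0.03 there.

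On APOE3, over all nuclei, the pair TAFE3_oil and FE3 differed mainly in astrocytes and microglia. At a matched mitochondrial share, described below, neurons differed too. In astrocytes 13 of 34 tested genes were higher (16.5% of all features) and 1 was lower, with a median log2 ratio of 0.47, and in microglia 13 of 32 were higher (22.7%) and 1 lower, with a median of 0.36. Oligodendrocytes had 6 higher of 32 (12.6%). The neurons had 1 of 34 in granule (6.81%), 1 of 34 in CA1 (6.32%), 2 of 34 in CA2/CA3 (6.5%), 2 of 35 in subicular or cortical (6.91%) and 1 of 34 in inhibitory neurons (7.98%), and precursors had 2 of 27 (11.7%), so outside astrocytes and microglia the shares were close to that of all features or rested on few genes. The medians in neurons ran from -0.03 to 0.13.

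In astrocytes the APOE3 pair reached both HSP90 genes, all 3 mitochondrial chaperones and 4 of the 6 tested HSP70 and HSP110 genes, against 1 of 8 J-domain genes, 2 of 6 CCT subunits and 0 of 4 HSP90 co-chaperones. Hspa9 stood at 54.6 and 68.5 CPM in FE3 and FE4, 121 and 92.4 CPM in TAFE3_oil and TAFE3_tam, and 147 and 88.7 CPM in TAFE4_oil and TAFE4_tam, and its log2 ratio of TAFE3_oil to FE3 was 1.15 (0.64 to 1.67). Hspa4 stood at 43.7, 44.3, 97.1, 72.5, 69.2 and 65.0 CPM, with a ratio of 1.15 (0.59 to 1.74). All 4 TAFE libraries were above both FE libraries for both genes. The ratios were 1.11 (0.85 to 1.36) for Hsp90aa1 and 1.02 (0.84 to 1.20) for Hspa8, and the lowest among genes with at least 100 UMIs over both libraries were 0.07 for Tcp1 and 0.14 for Dnajb2. Immediate early genes had a median of 0.82 in the same astrocytes. In microglia, where FE3 held only 169 nuclei, neuronal transcripts had a median of -1.03, and the part of either list in the chaperone values was not tested.

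Granule neurons differed less in the APOE3 pair. Hspa8 had a log2 ratio of 0.37 (0.25 to 0.50), and the highest among genes with at least 100 UMIs over both libraries were Hspa4 at 0.50 and Dnajb2 at 0.49. Hsf2, a heat shock factor active in development, stood in granule neurons at 52.4 and 34.5 CPM in FE3 and FE4, 31.4 and 40.9 CPM in TAFE3_oil and TAFE3_tam, and 52.4 and 42.9 CPM in TAFE4_oil and TAFE4_tam. It was lower in TAFE3_oil than in FE3, at -0.74 (-1.18 to -0.32), and higher in TAFE4_oil than in FE4, at 0.60. Hsf1 had a ratio of -0.44 in the APOE3 pair.

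The FE4 and FE3 libraries, which carry no tau, Cre or treatment, differed by the APOE allele. The FE4 library is also the one that TAFE4_oil was set against, so the pair above and this one are not independent. Lower genes numbered 10 of 33 in granule neurons (10.1% of all features were lower), 8 of 34 in CA1 (10.5%), 4 of 34 in CA2/CA3 (11.1%), 5 of 34 in subicular or cortical (8.76%) and 5 of 34 in inhibitory neurons (8.87%). They numbered 4 of 32 in oligodendrocytes (14.3%), 9 of 29 in precursors (16.9%), 4 of 34 in astrocytes (9.95%) and 3 of 26 in microglia (20.1%). The chaperone medians were -0.37 to -0.20 in 8 classes and -0.02 in microglia, where TMM scaling gave 0.07.

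Bag1 was lower in FE4 in 6 of the 8 classes in which it was tested, with a granule log2 ratio of -1.28 (-1.67 to -0.89). Hsp90aa1 was lower in 3 classes and below 0 in all 9 (-0.83 to -0.24), with -0.73 (-0.86 to -0.61) in granule neurons, and granule Hspa8 had -0.62 (-0.71 to -0.52). Granule Cct4 was 33.2 CPM in FE3 and 17.5 in FE4, a ratio of -0.93. Hspa4l and Hspa12a, at 0.00 and -0.06, were the highest granule ratios among genes with at least 100 UMIs over both libraries. In astrocytes Hspa2 and Hspd1 went the other way, with ratios of 0.66 and 0.56. The mitochondrially encoded genes had medians of -2.15 to -0.87 over the classes and the ribosomal protein genes of -0.81 to -0.11, and the share of the preparation in the chaperone values was not tested.

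Between the 2 oil-treated tau libraries the allele went with small differences. The chaperone median of TAFE4_oil against TAFE3_oil was 0.09 to 0.30 over the 9 classes, with 4 of 34 higher in granule neurons (7.2% of all features), 2 of 34 in oligodendrocytes (10.1%) and 2 of 35 in astrocytes (11.3%). Granule Hspa8 had a log2 ratio of 0.30 (0.16 to 0.44), and astrocyte Hspa8 of -0.08 (-0.24 to 0.09). After tamoxifen, TAFE4_tam against TAFE3_tam had medians of -0.29 to 0.14. Lower genes numbered 1 of 34 in granule neurons (6.16%), 2 of 33 in oligodendrocytes (8.04%), 6 of 30 in astrocytes (11.2%) and 8 of 29 in precursors (10.7%). In astrocytes Hspa8 had -0.50 (-0.72 to -0.28) and Hspa2 -0.69 (-1.27 to -0.13).

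Tamoxifen went with lower chaperone levels in APOE4 tau mice, most in astrocytes and oligodendrocyte precursors. TAFE4_tam against TAFE4_oil had 13 lower genes of 34 in astrocytes (15% of all features), 12 of 28 in precursors (14.7%), 7 of 34 in oligodendrocytes (13.9%) and 6 of 34 in microglia (13.3%). Neurons had 4 of 34 in granule (7.72%), 1 of 34 in CA1 (9.81%), 6 of 34 in CA2/CA3 (8.71%), 1 of 35 in subicular or cortical (4.05%) and 3 of 35 in inhibitory neurons (8.63%). Outside astrocytes and precursors the shares were near that of all features or rested on few genes. The medians ran from -0.47 in astrocytes and precursors to -0.08 in subicular or cortical neurons. The Cre is named for an astrocyte gene, and its part in the astrocyte and precursor medians was not tested. Median mitochondrial shares per barcode were 2.35% in TAFE4_oil and 0.695% in TAFE4_tam. Without the mitochondrial limit the astrocyte median was smaller in size, as given below. The mitochondrially encoded genes had medians of -1.61 to -0.63 ribosomal protein genes of -0.64 to -0.25 and oxidative phosphorylation genes of -0.67 to -0.30 in this pair. The neuronal transcripts had a median of -0.64 in microglia, with 9 of 13 lower, and of -0.26 to 0.24 in the other classes. The part of these lists in the chaperone values was not tested.

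Hspa8 was lower in TAFE4_tam in 5 of 9 classes (-0.86 to -0.38), with -0.71 (-0.93 to -0.49) in astrocytes and -0.61 (-0.73 to -0.48) in granule neurons. Hsp90aa1 was below 0 in every class (-0.66 to -0.30) but passed 1.5-fold in 1. Astrocyte Hspa9 had -0.73 (-1.28 to -0.21), Cct8 -0.67 and Cct5 -0.59, while Dnajc3 at -0.01 and Hspe1 at -0.04 were the highest among genes with at least 100 UMIs over both libraries. In oligodendrocytes Hspa9 had -0.72, Hspe1 -0.68 and Fkbp4 -0.64, against 0.27 for Dnajc3. Hsf1 was above 0 in 7 classes.

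On APOE3 the tamoxifen pair differed less. TAFE3_tam against TAFE3_oil had medians of -0.23 to 0.10, with lower genes in 2 of 34 in granule neurons (4.12%), 2 of 32 in oligodendrocytes (9.61%) and 2 of 34 in astrocytes (9.37%). Astrocyte Hspa8 had a log2 ratio of -0.29 (-0.46 to -0.12) and Hsp90aa1 of -0.33 (-0.57 to -0.10), and Hspa2 was higher at 0.78 (0.28 to 1.28). The mitochondrial list was higher here, with medians of 0.30 to 0.55, opposite to the APOE4 tamoxifen pair. Whether the effect of tamoxifen differed between the alleles was not tested.

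Since the mitochondrial share differed between libraries, chaperone levels were read at matched shares, as CPM of the non-mitochondrial UMIs. Within libraries, nuclei with 2 to 5% mitochondrial UMIs held more chaperone transcripts than those under 0.5% in 23 of 23 class and library pairs with at least 50 nuclei in both bins, and in 17 the counting interval of the ratio lay above 0. The median log2 ratio was 0.30 (range 0.0067 to 0.48), beside 0.71 for ribosomal protein genes, which moved more in all 23, and -0.24 for long nuclear RNAs. In FE4 granule neurons the level was 1784 CPM under 0.5%, 1884 at 0.5 to 1%, 1864 at 1 to 2% and 2108 at 2 to 5%.

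Among nuclei with 0.5 to 1% mitochondrial UMIs, the TAFE4_oil to FE4 ratio stayed above 0 in the 6 classes with enough nuclei. Granule neurons held 2833 CPM in TAFE4_oil and 1884 in FE4, a log2 ratio of 0.59 (0.47 to 0.70), and oligodendrocytes 4784 and 2807, a ratio of 0.77 (0.60 to 0.93). CA1 had 0.52, CA2/CA3 0.64, subicular or cortical neurons 0.44 and inhibitory neurons 0.64, beside ribosomal ratios of 0.58 to 0.78. The differing make-up of the subicular or cortical class was not matched. FE4 against FE3 had -0.30 (-0.40 to -0.19) in granule neurons and -0.10 (-0.21 to 0.02) in inhibitory neurons. TAFE3_oil against FE3 had 0.21 to 0.32 in granule, CA1, CA2/CA3 and inhibitory neurons, with counting intervals above 0. Subicular or cortical neurons had 0.03 (-0.06 to 0.13) in that pair, and no glial class had enough nuclei for it. TAFE4_tam against TAFE4_oil had -0.27 (-0.43 to -0.10) in oligodendrocytes but only -0.16 to -0.06 in neurons, and the median over single genes in granule neurons turned to 0.0088. TAFE4_tam against TAFE3_tam had 0.19 (0.07 to 0.30) in granule neurons, 0.32 in CA2/CA3, 0.16 in subicular or cortical and 0.25 in inhibitory neurons but -0.10 in CA1, where the sums over all nuclei had 0.02, 0.16, -0.0045, 0.03 and -0.0030. In astrocytes at 1 to 2%, FE3 and FE4 held 2542 and 2559 CPM, the oil libraries 4125 and 4542 and the tamoxifen libraries 3631 and 3385.

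**Figure D4:**
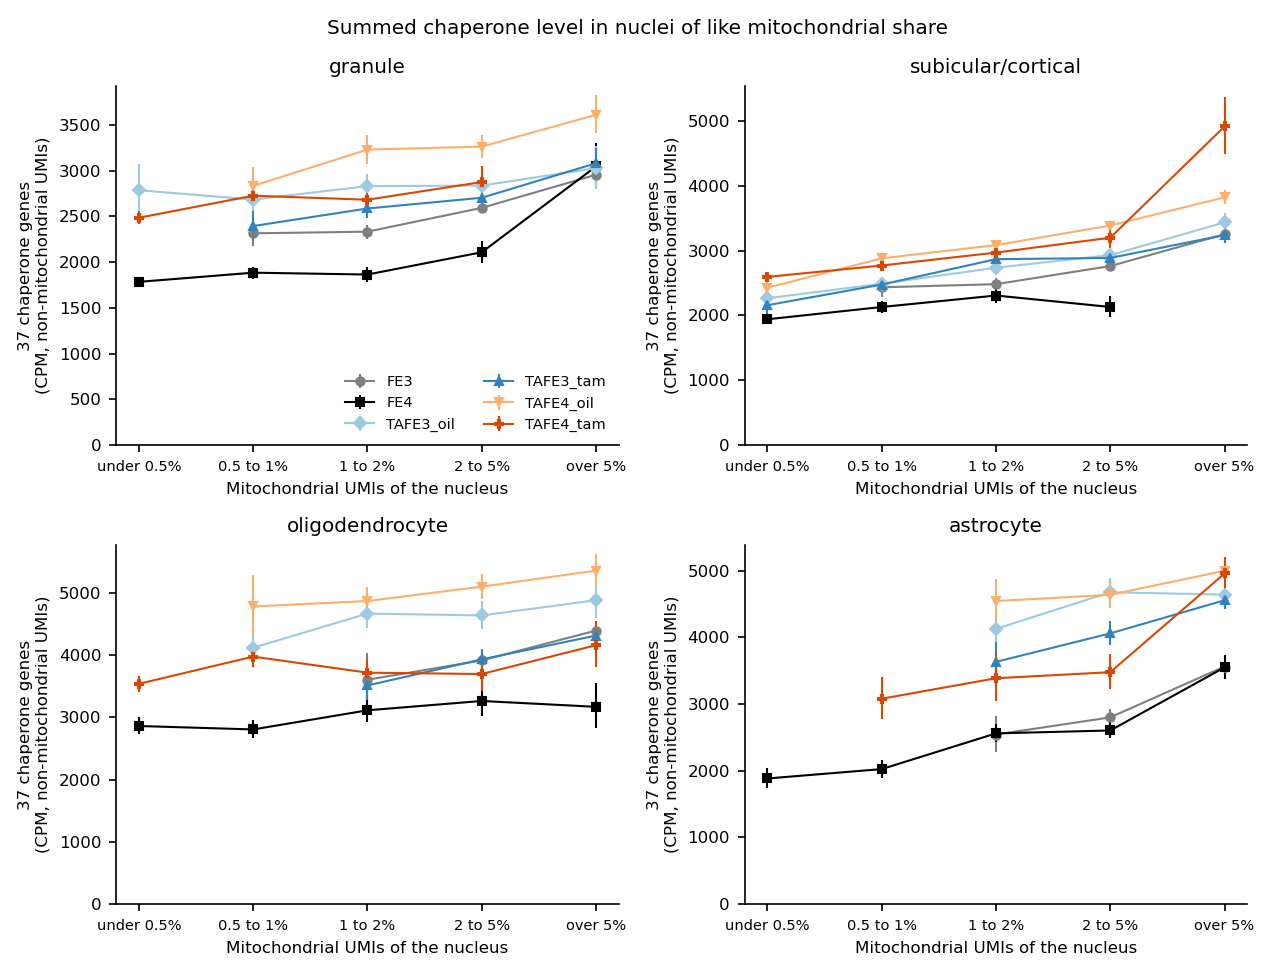
Summed level of the 37 genes, as CPM of the non-mitochondrial UMIs, by the nucleus's mitochondrial share, in granule neurons, subicular or cortical neurons, oligodendrocytes and astrocytes, with 1 line per library and bars for the 95% counting interval. FE4 granule neurons stay below the other libraries from 0.5 to 5%, and the astrocyte lines of FE3 and FE4 lie together at 2542 and 2559 CPM at 1 to 2%.

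The stress-inducible pair Hspa1a (chr17:34969190-34972156, minus strand) and Hspa1b (chr17:34956436-34959238, minus strand) was counted at many UMIs in a few nuclei and at few or no UMIs in the rest. The genes lie 9.95 kb apart and are near-identical, and 49.1% of the 91-base stretches of the Hspa1a transcript occur in Hspa1b, so their UMIs were added. A nucleus was called rich at 5 or more UMIs of the pair, a threshold set after the values were seen. FE3 held 1 such nucleus, FE4 0, TAFE3_oil 4, TAFE3_tam 6, TAFE4_oil 8 and TAFE4_tam 10. That was 0 to 0.0101% of the nuclei of an FE library and 0.0380 to 0.0788% of a TAFE library, and the limit that a count of 0 allows in FE4 is 0.0211%. The 28 of the TAFE libraries held 1317 of the 2626 Hspa1a and Hspa1b UMIs there, up to 322 in a single nucleus. Nuclei with any UMI of the pair were 1.26 to 1.72% of the FE libraries and 2.50 to 3.14% of the TAFE libraries. Hspa1a was thus not higher in the rich nuclei alone. In classes without one, TAFE4_oil and FE4 held 9.42 and 2.82 CPM in granule neurons (16 and 22 UMIs). Oligodendrocytes held 14.4 and 3.67 CPM (15 and 6 UMIs). With rich nuclei counted, Hspa1a was higher in TAFE4_oil in 7 of 7 tested classes (log2 ratios 1.26 to 3.85). Dnajb1 was higher in 6 of 7 (0.57 to 2.08). In a cluster of mixed vascular cells, outside the 9 classes, Hspa1a was highest in FE3, at 59.6 CPM (49.2 without its rich nucleus) against 23.8 in FE4 and 21.8 to 46.1 in the TAFE libraries. Free RNA can give such single UMIs, and no class is known to lack both genes.

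Of the 29 rich nuclei, 11 were subicular or cortical neurons of the 4 TAFE libraries and 9 belonged to an unnamed cluster described below. In subicular or cortical neurons alone, FE3 had 0 of 1264 and FE4 0 of 1504, counts that allow shares of up to 0.237% and 0.199%, and the TAFE libraries had 0.0569 to 0.118%, so a difference was not detectable at this depth. That class also had a different make-up, 1 cluster holding 13.9% of its FE3 and 7.65% of its FE4 nuclei but 41.0 to 64.3% of its TAFE nuclei. Subicular or cortical Hspa1a stood at 2.92 and 3.99 CPM in FE3 and FE4, 13.8 and 50.1 CPM in TAFE3_oil and TAFE3_tam, and 12.1 and 26.7 CPM in TAFE4_oil and TAFE4_tam. Without the rich nuclei it stood at 2.92, 3.99, 7.13, 7.72, 7.75 and 8.72 CPM, so those few nuclei set the order of the TAFE libraries. In astrocytes of TAFE4_oil a single nucleus took Hspa1a from 9.05 to 43.6 CPM.

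Summed, the other 35 genes were higher in the rich nuclei too. They came to 8130 CPM, against 4599 CPM in other nuclei of the same classes and libraries, and 25 of the 29 nuclei were above the level of their class and library. Known inducible genes had the highest folds. Dnajb1, the HSP40 partner of Hspa1a, was 10.1-fold higher (297 against 29.4 CPM), Hspe1 4.66-fold, Hsph1 3.97-fold, Chordc1 3.81-fold, Dnajb4 3.03-fold, Hsp90aa1 2.80-fold, Hspd1 2.46-fold and Bag3 2.43-fold. A single nucleus held 40 of the 117 Hspe1 UMIs. Hsf1 was at 0.516-fold, Dnajc6 at 0.712-fold, Dnaja2 at 0.725-fold, Hspa2 at 0.759-fold and Fkbp4 at 0.863-fold. These low folds rest on 6 to 19 UMIs each, and their counting intervals held the level of the other nuclei. The rich nuclei had a median of 4056 UMIs and 1.23% mitochondrial UMIs.

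**Figure D5:**
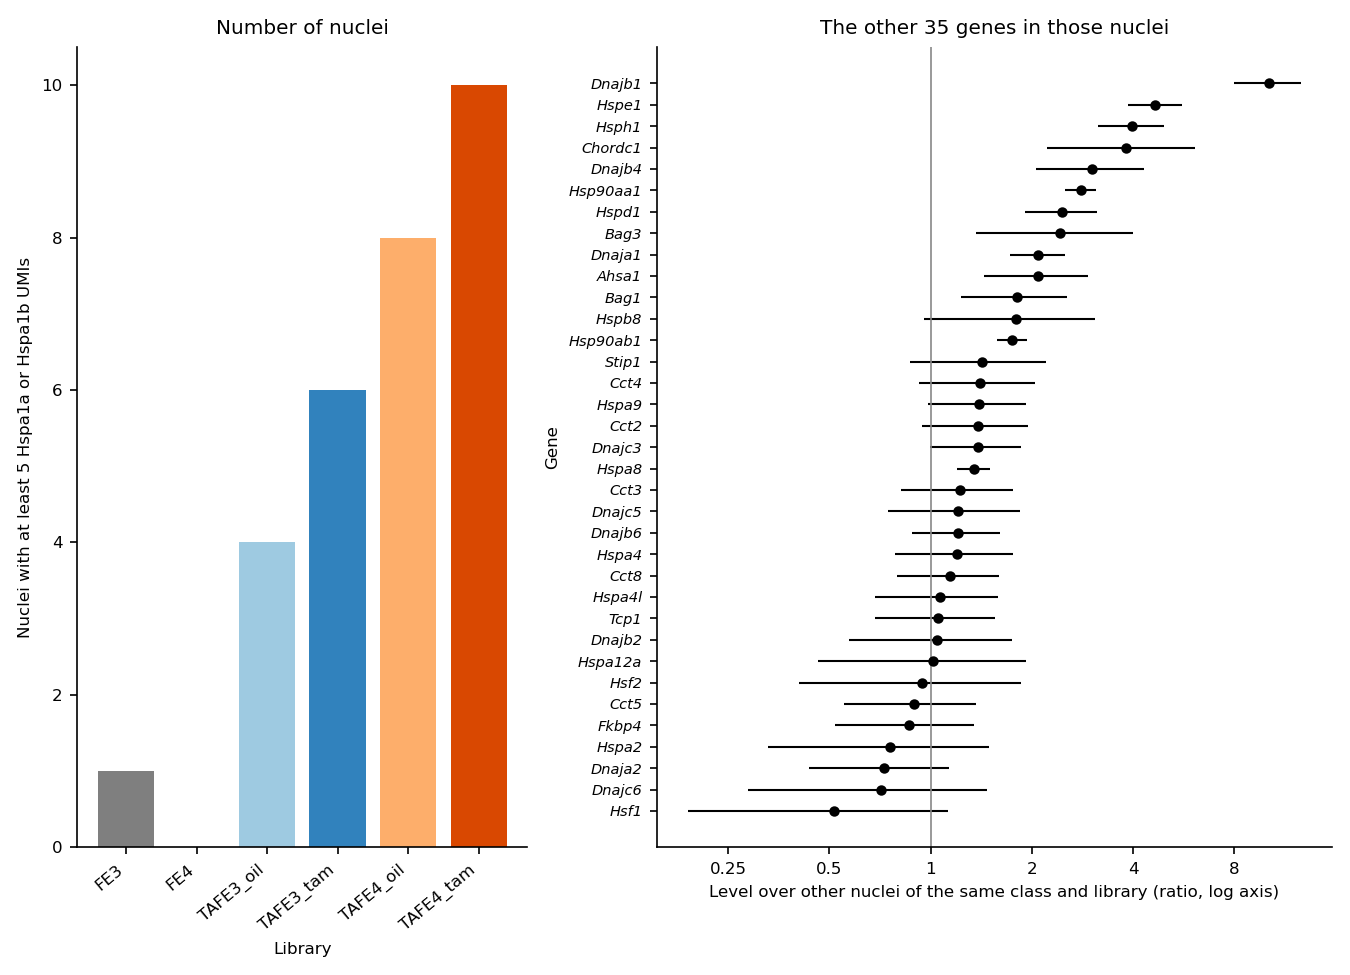
Number of nuclei with at least 5 UMIs of Hspa1a and Hspa1b in each library, and the fold of each of the other 35 genes in these 29 nuclei over other nuclei of the same classes and libraries, on a log axis. The FE libraries hold 1 such nucleus and the TAFE libraries 28, and Dnajb1 has the highest fold at 10.1.

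The promoters of these genes were searched for the heat shock element, in windows from 250 bases before to 50 after the annotated start (RefSeq, GRCm38.p6), which matched 30 of the 37 genes. Hspa8, Hspa9, Hsp90aa1, Hsp90ab1, Dnajc5, Cct4 and Hsf1 had no matching window. The letters searched were GAANNTTC and TTCNNGAA for 2 units, and GAANNTTCNNGAA and TTCNNGAANNTTC for 3 units, each of which contains a 2-unit match; either orientation is read on both strands. The 3-unit form was in 5 of the 30, namely Hspd1, Hspe1, Hsph1, Dnajb6 and Chordc1, against 0.662% of 27025 genes, and the 2-unit form in 14 of the 30, against 16.97%. The Hspd1 and Hspe1 windows overlap and hold the same stretch, read on opposite strands, so both counts include it under each gene. Dnajb6 was only 1.20-fold in the rich nuclei. Of 48 other chaperone genes with a window, 0 held the 3-unit form. The stretches below belong to genes that were high in the rich nuclei, with matches in capitals and all bases given 5′ to 3′ on the gene's strand (build GRCm38.p6). Hspa1a holds a single 2-unit match, Hspe1 a 3-unit match, Hsph1 a 2-unit match before the start and a 3-unit match after it, and Chordc1 a run of units across the start. Dnajb1, at its first listed start, holds none in its window, which says only that these letters are not there. The Hspa1b window is identical to that of Hspa1a at 296 of 300 bases.
Hspa1a before the start, chr17:34972157-34972406, minus strand: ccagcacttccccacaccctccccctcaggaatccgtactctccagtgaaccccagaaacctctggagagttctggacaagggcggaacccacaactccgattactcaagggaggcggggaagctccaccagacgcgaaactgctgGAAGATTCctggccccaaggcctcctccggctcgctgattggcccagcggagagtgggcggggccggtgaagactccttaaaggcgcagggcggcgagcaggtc
Hspe1 before the start, chr1:55087898-55088147, plus strand: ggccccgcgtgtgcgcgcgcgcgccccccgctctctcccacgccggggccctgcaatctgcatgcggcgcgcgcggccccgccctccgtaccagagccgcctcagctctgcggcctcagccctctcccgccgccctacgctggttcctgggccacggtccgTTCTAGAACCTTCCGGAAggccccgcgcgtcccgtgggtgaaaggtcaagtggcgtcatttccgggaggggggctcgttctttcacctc
Hsph1 before the start, chr5:149636316-149636565, minus strand: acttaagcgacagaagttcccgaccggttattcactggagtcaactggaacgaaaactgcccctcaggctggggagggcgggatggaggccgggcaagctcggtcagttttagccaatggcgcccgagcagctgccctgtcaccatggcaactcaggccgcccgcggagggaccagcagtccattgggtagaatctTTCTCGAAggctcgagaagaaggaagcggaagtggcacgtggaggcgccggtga
Hsph1 matched stretch, chr5:149636288-149636300, minus strand: TTCTGGAAAGTTC
Chordc1 matched stretch, chr9:18292263-18292285, plus strand: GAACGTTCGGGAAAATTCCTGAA
Dnajb1 before the start, chr8:83607925-83608174, plus strand: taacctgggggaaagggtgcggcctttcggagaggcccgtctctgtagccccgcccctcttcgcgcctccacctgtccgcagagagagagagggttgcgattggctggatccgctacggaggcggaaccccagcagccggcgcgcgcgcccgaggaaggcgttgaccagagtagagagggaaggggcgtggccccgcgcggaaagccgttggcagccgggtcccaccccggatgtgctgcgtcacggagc

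An unnamed cluster of 63 nuclei, found although the 37 genes were kept out of the clustering, was led by the stress genes Tnfrsf12a, Cdkn1a, Cxcl2, Atf3, Gdf15 and Gadd45b, and was examined after its values were seen. It held 0 nuclei of FE3 and 0 of FE4, which allows shares of up to 0.0303% and 0.0211%, and 17 and 6 nuclei of TAFE3_oil and TAFE3_tam and 21 and 19 nuclei of TAFE4_oil and TAFE4_tam. Its chaperone sum was 15479 CPM, against 2894 CPM over the 9 classes, and 63 of 63 nuclei were above the median nucleus of the classes. Hsp90aa1 stood at 3221 CPM, counted in 52 of the nuclei and 10.7-fold above the classes, Hsp90ab1 at 2152 CPM and Dnajb1 at 406 CPM, a fold of 42.4. Hspa1a stood at 2717 CPM, with 221 UMIs in 21 nuclei. Without the 9 rich nuclei, only 1, 0, 5 and 9 of these UMIs remained in TAFE3_oil, TAFE3_tam, TAFE4_oil and TAFE4_tam. Hsf1 had a fold of 0.998. These nuclei had a median of 1059 UMIs and 1.27% mitochondrial UMIs. At a coarser clustering all 63 were absorbed into a cluster of 6762 nuclei. The cluster's cell type could not be named from its markers.

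Beyond the 37, a list of 62 other chaperone genes (further small heat shock proteins, ubiquitin genes, prefoldins, FKBP proteins and endoplasmic reticulum chaperones) was measured by the same rule. Between TAFE4_oil and FE4, 15 of 56 were higher and 1 lower in granule neurons, 17 of 56 and 1 in oligodendrocytes, 20 of 56 and 3 in astrocytes, and 11 of 54 and 3 in microglia, so their shares were nearer those of all features than the shares of the 37. Of all features in that pair, 5.97%, 6.84%, 11.01% and 11.9% were lower in these classes, in the same order. Between TAFE3_oil and FE3 the numbers were 3 and 1 of 57 in granule neurons and 6 and 1 of 51 in oligodendrocytes. They were 12 and 2 of 53 in astrocytes and 11 and 3 of 53 in microglia. Of all features there, 6.81%, 12.6%, 16.5% and 22.7% were higher in the same class order. The lower shares of all features were 8.68%, 8.88%, 11.3% and 17.3%. Cryab, the alpha B-crystallin of oligodendrocytes and astrocytes, led the list. In astrocytes it stood at 220 CPM in TAFE3_oil against 41.5 in FE3 (log2 ratio 2.41), and at 182 in TAFE4_oil against 48.3 in FE4 (1.91). It was also higher in granule neurons, at 70.1 CPM in TAFE4_oil against 11.6 in FE4 (2.60, 2.19 to 3.01), far below the 474 CPM of TAFE4_oil oligodendrocytes, and the part of free RNA in the granule value was not tested. Ubb, a ubiquitin gene, had ratios of 1.56 in granule neurons and 1.67 in astrocytes between TAFE4_oil and FE4. Fkbp5, a glucocorticoid-responsive FKBP gene, was lower there, with -0.96 in granule neurons (34.2 against 66.4 CPM) and -1.55 in microglia, and Hspa5, the endoplasmic reticulum HSP70, had -0.27 and -0.42.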

How the data were processed

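Nuclei were isolated over sucrose from perfused, flash-frozen brain, per the labels' protocols, and the authors deposited 1 table of UMI counts (whole-number counts per gene and barcode) per library, written by Cell Ranger 3.1.0, per the file headers. Build mm10 and Seurat are named in the submitters' processing notes; the sources used here do not give whether intron reads were counted.

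From these counts, barcodes with at least 500 UMIs, 300 genes and at most 5% mitochondrial UMIs were kept, and doublets were left out as the highest-scoring share expected at 0.8% per 1000 barcodes, a rule chosen after seeing the data. Nuclei were clustered in scanpy 1.11.5 and leidenalg 0.10.2 (2000 variable genes without the chaperone genes, 30 components, 15 neighbours, resolution 1; 30 clusters), and 9 classes were named from markers. Depth was 39050503 to 49083723 UMIs per library. UMIs were summed per class and library. Levels carry Poisson and ratios exact binomial 95% intervals (scipy 1.17.1), which cover counting error only; counts under 3 were set to 3 in ratios. Classes under 50 nuclei gave no ratio. Each group is 1 library, and no test between groups was made. The ratio and interval steps were tested on simulated data.

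The members and lists were chosen with earlier results of these data known. Members with at least 100 UMIs over both libraries were named where among the 5 highest or 5 lowest ratios of a class, or the highest of their role; other chaperone genes by their 3 highest and 3 lowest. Hspa1a, Hspa1b and other low-count genes, Hsf2, the promoter genes, and the unnamed cluster were singled out after their values were seen. Gene positions come from GENCODE M21.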

Additional observations from a re-analysis of the deposited data

Results flagged for a closer look

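In subicular or cortical neurons the tamoxifen and oil libraries differed in opposite directions on the APOE alleles for the summed chaperone level and for 6 genes. For the sum, the log2 ratio of tamoxifen to oil was -0.17 in TAFE4 and 0.07 in TAFE3. The ratios were -0.62 and 0.51 for Hspa2, -0.55 and 0.27 for Hspe1, -0.24 and 0.13 for Hsp90ab1, -0.19 and 0.16 for Dnaja1, -0.30 and 0.33 for Bag1, and -0.23 and 0.18 for Cct8. Each rests on 1 library per group, and the differences were not tested. The mitochondrially encoded genes also moved in opposite directions in these pairs. Hsf2 in granule neurons had a log2 ratio of 0.60 in TAFE4_oil against FE4 and of -0.74 in TAFE3_oil against FE3, a difference that was not tested either. The unnamed cluster led by stress genes, outside the 9 classes, held 63 nuclei of the TAFE libraries and 0 of the FE libraries.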

How the results depend on the processing

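No paired analysis was possible because each group has 1 library, and no library could be left out for the same reason. Over all settings tried, the median log2 ratio of the chaperone genes moved within an interval around its main value in 709 cases and beyond it in 60. That interval comes from the ranked ratios of the single genes, which are no replicates, and measures no variation between animals. The summed log2 ratio moved within its counting interval in 516 and beyond it in 127. In nuclei of 0.5 to 1% mitochondrial UMIs, 33 moved beyond it and 5 stayed within it. With at most 1% mitochondrial UMIs the numbers were 29 and 9, and under scaling by trimmed means of M values 28 and 35. Most sums thus left their counting interval where the mitochondrial share was limited to 1% or less. The median of TAFE4_oil against FE4 kept its sign in 111 of 111 (0.30 to 0.90), FE4 against FE3 in 108 of 109 (-0.47 to 0.07), TAFE4_tam against TAFE4_oil in 109 of 111, TAFE3_oil against FE3 in 95 of 109 (-0.19 to 0.59), TAFE4_oil against TAFE3_oil in 110 of 111, TAFE3_tam against TAFE3_oil in 103 of 109 and TAFE4_tam against TAFE3_tam in 94 of 109 (-0.37 to 0.26). Without a mitochondrial limit, the median was -0.47 for FE4 against FE3 in oligodendrocytes, and in astrocytes 0.33 for TAFE3_oil against FE3, -0.16 for TAFE4_tam against TAFE4_oil and -0.048 for TAFE4_tam against TAFE3_tam. At most 1% mitochondrial UMIs gave 0.56 for TAFE4_oil against FE4 in granule neurons, and 0.071 in granule neurons and 0.20 in oligodendrocytes for TAFE4_oil against TAFE3_oil. At 0.5 to 1%, granule medians were -0.28 for FE4 against FE3, 0.31 for TAFE3_oil against FE3, 0.56 for TAFE4_oil against FE4, 0.052 for TAFE4_oil against TAFE3_oil and 0.0088 for TAFE4_tam against TAFE4_oil, and oligodendrocyte medians for the last 3 were 0.86, 0.36 and -0.23. TMM gave -0.18 for FE4 against FE3 in granule neurons and, for TAFE4_oil against FE4, 0.52 in granule neurons, 0.44 in oligodendrocytes and 0.50 in astrocytes. It lowered the higher genes of the latter pair from 24 to 13 in granule neurons and from 24 to 10 in oligodendrocytes, while the share of all features that were higher went to 13.1% and 13.5%. Leiden resolution 0.5 gave 0.84 for TAFE4_oil against FE4 in oligodendrocytes, and the doublet caller's own threshold 0.19 for TAFE4_oil against TAFE3_oil in astrocytes. The cause of these moves was not tested. Nuclei rich in Hspa1a and Hspa1b numbered 0 in FE and 12 in TAFE at most 1% mitochondrial UMIs, and 4 and 41 at 3 or more UMIs. Classes under 50 nuclei gave no value in the mitochondrial settings, and low-count genes such as Hspa1b, Bag3 and Hspb8 were limited by depth.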

Other observations

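The log2 ratio of TAFE4_oil to FE4 varied with gene length in a way that differed by class. In granule neurons, chaperone genes had median log2 ratios of 0.81 under 10 kb (10 genes), 0.73 at 10 to 30 kb (16) and 0.23 over 30 kb (8). Other genes had 0.26, 0.16 and 0.11 in the same length bins, which were looked at after the values were seen. Ribosomal protein, oxidative phosphorylation and mitochondrially encoded genes were left out of these other genes. The lists left out had higher medians in this pair, and bins that include them were not measured. In microglia the chaperone medians were 0.85, 0.53 and 0.79 and those of other genes 0.12, 0.07 and 0.12.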
